A study of Homo sapiens with 3 samples.

Results

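Laminins are the cross-shaped glycoproteins on which epithelial basement membranes are built. Each molecule is a trimer of 1 alpha, 1 beta and 1 gamma chain joined along a coiled coil, and each chain is the product of its own gene. The alpha chain carries the globular domains that bind integrins and dystroglycan, while the short arms link laminins into a sheet with nidogen, perlecan and collagen IV. In pancreatic ductal adenocarcinoma, laminins are deposited by the carcinoma cells as well as by the stroma, and tumour cells attach to them through integrins.

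The 9 laminin chain genes LAMA1, LAMA2, LAMA3, LAMA4, LAMA5, LAMB1, LAMB2, LAMB3 and LAMC1 were taken by name out of 19775 genes on the array. The rule itself uses no measured value, but the genes were proposed with earlier results of these arrays known. Every probe set that the platform annotation assigns to 1 of them alone was used, which gave 18 of 54613 probe sets. These covered 8 of the genes. LAMA3 had no such probe set and was not analysed here, and 1 probe set assigned to LAMA5 together with its antisense transcript was left out.

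RNA came from 3 stable, untreated derivatives of PANC-1, a long-established human cell line of pancreatic ductal adenocarcinoma. The control line carried the blank vector, which the label of that sample names as MSCV, a retroviral vector. The second line expressed wild-type JMJD3 and the third a mutant JMJD3. JMJD3 is the histone demethylase encoded by KDM6B. The labels do not say which mutation was used, or whether a line is a clone or a pool, and PANC-1 is the only background in which the proteins were expressed. Each line was read by 1 Affymetrix array. Since a line has only 1 array, the differences could not be tested against replicates and are described by size alone. Precision is limited by this number of arrays.

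The deposited signals were log2 values with medians of 5.50 (control), 5.48 (wild-type JMJD3) and 5.49 (mutant JMJD3). Signals at or under the pooled median of log2 5.48 are called the floor here, and all differences are log2 signals after raising lower values to it. A gene was measured in a comparison if at least 1 of the 2 arrays exceeded the floor. KDM6B at its brightest probe set read 7.60 in control, 7.66 with wild-type and 7.65 with mutant JMJD3, but its probe sets did not move together. Probe sets 1556067_a_at (5.53, 6.73 and 6.45 in this order) and 1556066_at (6.02, 6.75 and 6.51) were higher in both JMJD3 arrays than in control. The labels do not say which of them the introduced sequence covers. HKDC1, the hexokinase family gene of the series title, read 4.19, 8.02 and 4.24 in the same order. Of 7 ductal and epithelial markers 6 were over the floor in every array, CDH1 being the exception at 4.62, and none of the leukocyte, acinar or endocrine markers with a probe set was. COL1A1, DCN and PDGFRB of 7 fibroblast markers and PECAM1 of 4 endothelial markers were over the floor in every array, while COL1A2, COL3A1, LUM, FAP and CDH5 were under it in all. The summed signal of the fibroblast markers was log2 10.43 in control, 10.94 with wild-type and 10.58 with mutant JMJD3. That of the epithelial markers was 14.05, 14.21 and 13.44, but these did not move together. In mutant against control KRT7, KRT8, KRT18 and MUC1 were lower. KRT19 (5.55 in control, 7.73 with mutant) and EPCAM (6.17 and 7.07) were higher. The mesenchymal markers VIM, CDH2 and ZEB1 were over the floor in every array, and their summed signal was 13.39, 13.43 and 13.45. VIM was highest with wild-type JMJD3, CDH2 and ZEB1 with the mutant. The part of any of these marker sets in the differences below was not tested.

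Of the 8 genes with a probe set, 6 were over the floor in every array, namely the alpha chains LAMA1 and LAMA5, the beta chains LAMB1, LAMB2 and LAMB3, and the gamma chain LAMC1. LAMA1, LAMB2 and LAMB3 were highest in the wild-type JMJD3 array and lowest in the mutant array. LAMB1 was lowest in the wild-type array. LAMA5 read the same in all arrays, and the LAMC1 probe sets disagreed with each other.

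**Figure D1:**
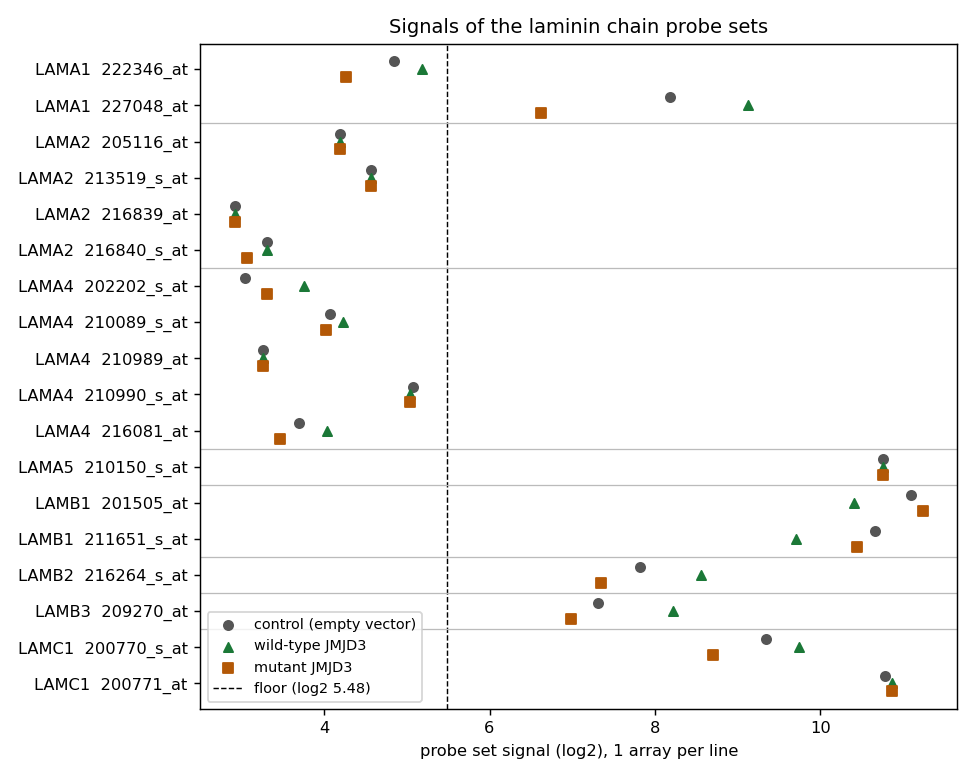
Log2 signal (horizontal axis) of each of the 18 laminin probe sets (vertical axis) in the control (circles), wild-type JMJD3 (triangles) and mutant JMJD3 (squares) arrays, 1 array per line, with the floor at log2 5.48 dashed. The brighter LAMA1 probe set, LAMB2 and LAMB3 have the triangle on the right and the square on the left, both LAMB1 probe sets have the triangle on the left, and all LAMA2 and LAMA4 probe sets lie under the floor.

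The 3 beta chain genes fell on different sides of control in the wild-type JMJD3 array, and their promoters are shown for that reason. Each sequence holds the 250 bases before the outermost RefSeq transcript start on GRCh38.p14, 5′ to 3′ on the gene's strand. Capitals mark GC boxes (GGGCGG or CCGCCC), the letters bound by SP1-type factors, and no other searched motif occurred in these windows.
LAMB1, chr7:108003162-108003411, strand -: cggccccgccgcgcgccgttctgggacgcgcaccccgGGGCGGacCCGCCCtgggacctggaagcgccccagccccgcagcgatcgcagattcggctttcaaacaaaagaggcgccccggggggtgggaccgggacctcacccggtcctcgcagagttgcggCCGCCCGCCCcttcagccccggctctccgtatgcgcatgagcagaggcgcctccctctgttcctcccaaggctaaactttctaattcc
LAMB2, chr3:49133051-49133300, strand -: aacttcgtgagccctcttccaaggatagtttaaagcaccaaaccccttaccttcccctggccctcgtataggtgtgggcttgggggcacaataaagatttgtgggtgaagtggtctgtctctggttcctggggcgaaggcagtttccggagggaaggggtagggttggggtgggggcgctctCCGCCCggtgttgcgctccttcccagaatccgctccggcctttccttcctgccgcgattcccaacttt
LAMB3, chr1:209652426-209652675, strand -: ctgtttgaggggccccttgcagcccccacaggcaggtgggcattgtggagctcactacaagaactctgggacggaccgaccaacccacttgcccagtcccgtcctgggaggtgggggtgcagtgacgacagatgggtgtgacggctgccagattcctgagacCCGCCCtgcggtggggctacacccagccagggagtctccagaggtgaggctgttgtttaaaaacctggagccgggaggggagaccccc

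The LAMB1 window held 4 GC boxes, of which the last 2 overlap, and 28 CG dinucleotides, as many as or more than which were found in 15.9% of all windows. LAMB2 and LAMB3 held 1 GC box each, with 12 and 8 CG dinucleotides against a median of 11 over 35116 windows. GC boxes occurred in 42.6% of all windows on either strand. The AP-1 element TGANTCA (6.57% of windows), the CCAAT box (CCAAT, 32.0%) and the TATA box (TATAAA, 10.7%) were not among the letters of these 3 windows. RefSeq also gives LAMB3 starts further into the gene on chromosome 1. The window of the start at position 209652329 held 1 GC box and no other searched motif. That of the start at position 209651374 held 1 AP-1 element, 1 CCAAT box and 1 GC box. Of the other laminin windows before an outermost start, LAMA5 held 5 GC boxes and LAMC1 held 3, with 32 CG dinucleotides in each, while LAMA2 held none of the 4 motifs. The windows for LAMA4 and LAMA3 lie before a start inside the gene, and held none of the motifs (LAMA4) or 2 AP-1 elements and 1 GC box (LAMA3). For LAMA1 no window was available. Which start is used in PANC-1 was not measured by these arrays, and a match of letters is a description of the sequence alone.

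Among alpha chains, LAMA1, the alpha chain of the embryonic type of laminin, differed most between the arrays. Its probe set 227048_at read 8.18 in the control array, 9.12 in the wild-type JMJD3 array and 6.62 in the mutant array. The wild-type array was thus the highest, and the mutant array lay well under both others while staying over the floor. Against control, LAMA1 was 1.92-fold higher with wild-type JMJD3 (log2 difference 0.94) and 2.95-fold lower with mutant JMJD3 (-1.56). Wild-type exceeded mutant 5.66-fold (2.50). Counting LAMA1 itself, 8 of 12707 measured genes were as low or lower in mutant against control, and 4 of 12829 were as high or higher in wild-type against mutant. The second LAMA1 probe set, 222346_at, kept the same order under the floor (4.85 in control, 5.18 with wild-type, 4.26 with mutant JMJD3), where no fold is given. With the median over both probe sets, the difference of mutant from control was -1.03. In RNA of a whole culture, fewer cells with a transcript and less of it per cell cannot be told apart.

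LAMA5, the broadly expressed epithelial alpha chain, read 10.76 in each of the 3 arrays at its 1 probe set, 210150_s_at. The same value to 2 decimals was deposited for all arrays in 21.0% of all probe sets, and in 7.69% of those over the floor in every array. An equal deposited value therefore does not show that the transcript levels were equal. Of the 18 laminin probe sets 5 had this property, 3 of LAMA2 and 1 each of LAMA4 and LAMA5.

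LAMA2, the alpha chain of muscle and nerve basement membranes, and LAMA4, that of vessel walls, were under the floor throughout. The 4 LAMA2 probe sets lay between 2.92 and 4.57, and the only one that differed between arrays was 216840_s_at (3.31 in control and with wild-type JMJD3, 3.07 with mutant JMJD3). The 5 LAMA4 probe sets lay between 3.04 and 5.08. Its largest spread was at 202202_s_at, with 3.04 in control, 3.76 with wild-type and 3.31 with mutant JMJD3. At this signal no fold is given for either gene.

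The beta chains differed in opposite directions. LAMB1, the most widespread beta chain, was lowest in the wild-type JMJD3 array in both of its probe sets. Probe set 201505_at read 11.10 in control, 10.41 with wild-type and 11.24 with mutant JMJD3, which put wild-type 1.61-fold under control and 1.78-fold under mutant. Probe set 211651_s_at read 10.66, 9.71 and 10.44 in that order, so that wild-type lay 1.93-fold under control and 1.66-fold under mutant. Against control the mutant array was 1.10-fold higher in the first probe set and 1.16-fold lower in the second. Neither probe set reached 2-fold in any comparison.

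LAMB2, the beta chain of neuromuscular and glomerular basement membranes, was highest in the wild-type JMJD3 array and lowest in the mutant array. Its 1 probe set, 216264_s_at, read 7.82 in control, 8.56 with wild-type and 7.35 with mutant JMJD3. It was 1.67-fold higher than control with wild-type and 1.39-fold lower with mutant JMJD3, and wild-type exceeded mutant 2.31-fold. The suffix of this probe set marks probes shared with other transcripts, so the value can include related sequence. The pseudogene LAMB2P1 has a probe set of its own, which read 5.71 in all 3 arrays. As for LAMA5, this equal deposited value does not show equal transcript levels, and the part of the pseudogene in the LAMB2 signal was not tested.

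LAMB3, a beta chain of the epithelial laminin that anchors hemidesmosomes, followed the order of LAMB2. Its 1 probe set, 209270_at, read 7.31 in control, 8.22 with wild-type and 6.99 with mutant JMJD3. It was 1.88-fold higher than control with wild-type and 1.25-fold lower with mutant JMJD3, and wild-type exceeded mutant 2.35-fold (log2 difference 1.23). Under an offset instead of a floor the last difference was 0.997, just short of 2-fold.

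LAMC1, the gamma chain of most laminins, was read differently by its probe sets. The brighter, 200771_at, read 10.78 in control and 10.86 in both JMJD3 arrays, differences of 1.06-fold from control and none between the JMJD3 lines. The other, 200770_s_at, read 9.34 in control, 9.74 with wild-type and 8.70 with mutant JMJD3. The wild-type signal there was 2.06-fold that of the mutant. The order of arrays in the second probe set was that of LAMA1, LAMB2 and LAMB3, while the first did not show it. These data do not settle which of them reflects the LAMC1 transcript, and no direction is given for the gene in mutant against control or wild-type against mutant JMJD3.

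**Figure D2:**
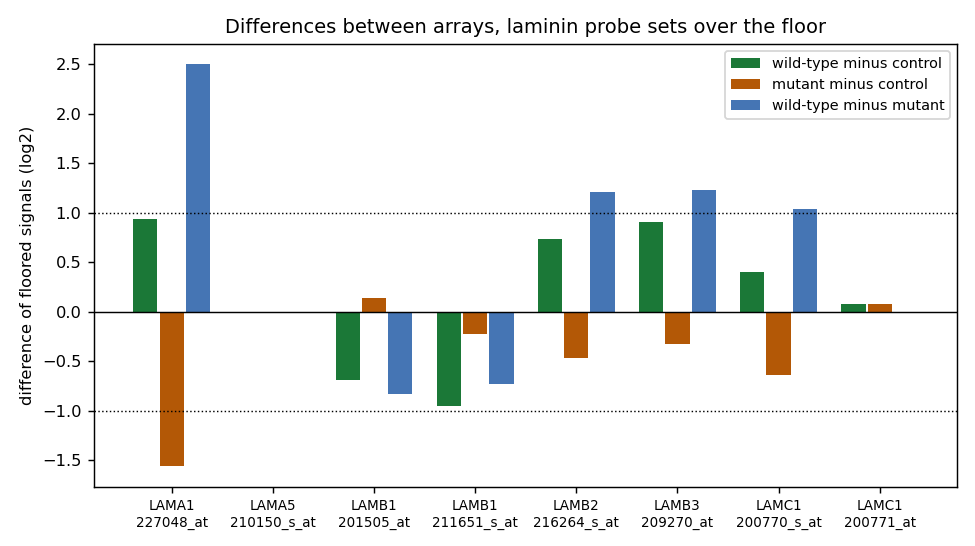
Log2 differences of floored signals (vertical axis) between the arrays named in the legend, for the 8 laminin probe sets over the floor (horizontal axis), with dotted lines at 2-fold. The wild-type minus mutant bars of LAMA1, LAMB2, LAMB3 and the shared LAMC1 probe set pass the upper line, and of the other bars only that of LAMA1 in mutant minus control passes a line.

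In wild-type JMJD3 against control, 0 of the 6 measured laminin genes were higher by 2-fold or more, beside 0.953% of 12697 measured genes, and 0 were lower, beside 1.31%. LAMA1, LAMB2 and LAMB3 lay above control, LAMB1 below and LAMA5 level. LAMC1 entered the counts and medians at its brightest probe set (0.08 here, and 0.40 at the other). The median log2 difference was 0.41 beside 0.05 over all measured genes. In mutant JMJD3 against control, 1 of 6 was lower by 2-fold, LAMA1, beside 0.535% of 12707 genes, and 0 were higher, beside 2.98%. The laminin median was -0.16 and that of all measured genes 0.00. In wild-type against mutant JMJD3, 3 of 6 were higher by 2-fold, LAMA1, LAMB2 and LAMB3, beside 2.61% of 12829 genes, and 0 were lower, beside 6.20%. The median was 0.60, and 0.00 over all measured genes. Counted by probe set, 4 of the 8 laminin probe sets over the floor were higher by 2-fold in this comparison, beside 2.56% of 23359. The comparisons share arrays and the values of each gene are therefore tied to one another. A count over 6 genes has no replicate check.

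**Figure D3:**
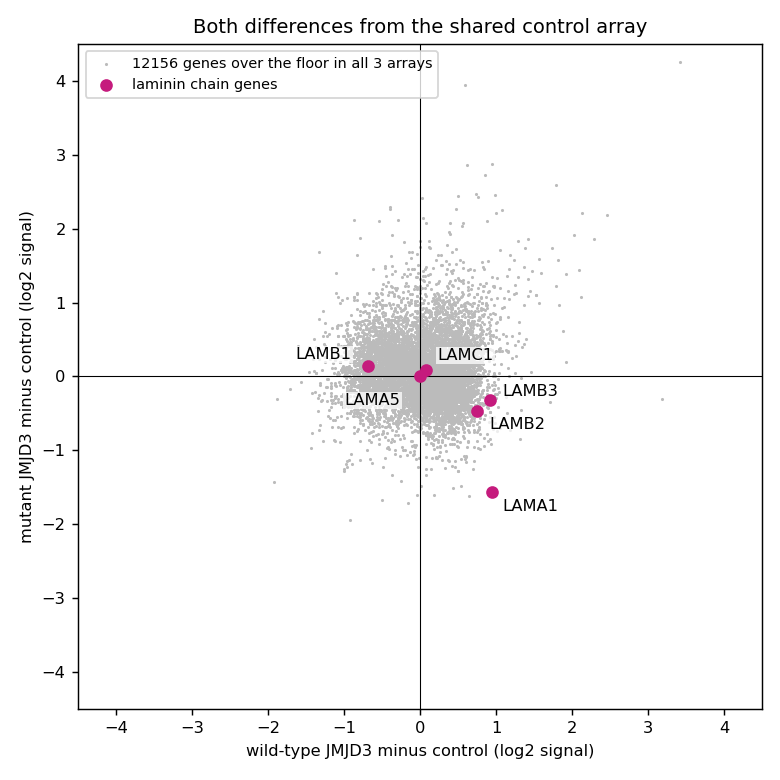
Difference from control with wild-type JMJD3 (horizontal axis, log2) against that with mutant JMJD3 (vertical axis, log2) for 12156 genes over the floor in all arrays, in grey, and the 6 laminin genes at their brightest probe set, labelled. Both axes use the same control array. LAMA1 at 0.94 and -1.56 stands apart from the grey field at the lower right, LAMB2 and LAMB3 lie nearer its right edge, and LAMB1 lies to the left of 0.

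Genes whose pair of differences from control lay nearest to each of the 3 laminin genes past 2-fold were looked up by Euclidean distance, over 3 arrays and 12156 genes. For LAMA1 these were LINC03040 (distance 0.31), ADI1 (0.39), AJUBA (0.42), PCDH7 (0.48) and SSTR1 (0.51). AJUBA, a LIM protein of cell junctions, read 11.36 in control, 11.89 with wild-type and 9.87 with mutant JMJD3. LAMB2 had nearer neighbours, TM9SF4, VSIR, OBSL1, SLC22A4 and PIGO, at distances of 0.03 to 0.04. For LAMB3 the nearest was C1orf198, with the same 2 differences (0.91 and -0.32), followed by NOL6, GALNS, MR1 and PRKCH at 0.06 to 0.09.

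Most other measured components of the basement membrane differed by less than 2-fold, as did most measured genes. Beside the counts of the lists that follow, 54.4% of all measured genes lay above 0 and 34.3% below in wild-type against control, 45.9% and 41.2% in mutant against control, and 49.7% and 40.5% in wild-type against mutant JMJD3. By 2-fold or more, 0.953% were higher and 1.31% lower in wild-type against control. The same shares were 2.98% and 0.535% in mutant against control, and 2.61% and 6.20% in wild-type against mutant JMJD3. Of 28 genes on the basement membrane list 18 were measured in wild-type JMJD3 against control, 14 above and 3 below it, with a median of 0.21 and none at 2-fold. In mutant against control 12 of 19 lay above and 5 below, with a median of 0.04 and again none at 2-fold. In wild-type against mutant 11 of 19 lay above and 6 below, with a median of 0.23, and 1 reached 2-fold. This was SMOC1, a calcium-binding matricellular protein gene, which read 11.05 in control, 10.71 with wild-type and 11.71 with mutant JMJD3 at 222784_at. Its other probe set read 9.87, 9.73 and 9.70, and the difference between the JMJD3 arrays, which met the 2-fold line exactly, was under it after either scaling and was -0.48 with the median over probe sets.

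The collagen IV chains, which form the network that laminin sheets are tied to, and the genes COL18A1, HSPG2, AGRN and NID1 were picked for description after their values were seen. COL4A2 read 12.03 in control, 12.72 with wild-type and 11.89 with mutant JMJD3, and its neighbour COL4A1 read 10.90, 11.37 and 11.03. A second COL4A1 probe set, 211981_at, read 8.69, 9.39 and 8.54, with the mutant under control rather than over it. COL4A3 was lowest in the wild-type array, with 8.09, 7.20 and 8.16 at 222073_at, as was COL4A4 with 9.48, 8.92 and 9.81. The other COL4A3 probe set over the floor, 214641_at, differed little (5.80, 5.67 and 5.81), and the remaining ones were under the floor. COL4A1 and COL4A2, the chains of the ubiquitous network, were thus highest in the wild-type array, and COL4A3 and COL4A4, chains of a specialised network, lowest, none by 2-fold. The third chain of that network, COL4A5, read 10.60, 10.67 and 10.75. COL18A1, the endostatin precursor, read 8.51 in control, 9.22 with wild-type and 8.31 with mutant JMJD3. Perlecan (HSPG2) was 0.27 above control with wild-type and 0.04 with mutant JMJD3 on the log2 scale, and agrin (AGRN) 0.30 and 0.04. Nidogen (NID1) was near the floor at its brightest probe set (5.73, 5.92 and 5.73), while 202007_at read 3.28 in control, 5.37 with wild-type and 5.73 with mutant JMJD3, the last alone being over the floor.

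Receptors for laminin were measured in 13 of 15 list members in wild-type JMJD3 against control, 9 above and 3 below, with a median of 0.08 and none at 2-fold. In mutant against control 10 of 12 lay above and 2 below, beside 45.9% and 41.2% of all measured genes, with a median of 0.17. The only one at 2-fold, beside 2.98% of all measured genes higher by as much, was ADGRG6, an adhesion receptor of Schwann cells, which read 4.82 in control, 6.13 with wild-type and 6.58 with mutant JMJD3, or at least 2.14-fold higher with the mutant. Raising the floor to the 60th percentile lowered this bound to 0.41 on the log2 scale, and an offset gave 0.94, both short of 2-fold. The other ADGRG6 probe sets, 1553025_at (3.03, 3.05 and 2.98) and 233887_at (3.64 in all arrays), were under the floor. In wild-type against mutant 5 of 13 lay above and 7 below, with a median of -0.08 and none at 2-fold. The integrin chains that pair in hemidesmosomes differed little. ITGA6 read 8.52 in control, 8.52 with wild-type and 8.60 with mutant JMJD3, and ITGB4 read 6.29, 6.26 and 6.53 in this order. MCAM, a receptor for LAMA4 laminins, had the largest difference of wild-type over mutant JMJD3 among the receptors at their brightest probe sets (0.95, from 11.72 and 10.77, with 11.30 in control). A second probe set of the syndecan SDC2, 212154_at, had a larger one, with 10.70 in control, 11.38 with wild-type and 10.31 with mutant JMJD3 (2.10-fold), while its brightest read 11.06, 11.53 and 11.18. ITGA2, the integrin chain for collagen and laminin, was 0.92 above control with mutant JMJD3 (7.82 in control, 7.89 with wild-type and 8.74 with mutant). ITGA6, ITGB4, MCAM, SDC2 and ITGA2 were named after their values were seen.

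Hemidesmosome genes other than the laminins were measured in 5 of 9 list members in each comparison and none differed by 2-fold. The largest differences of wild-type over mutant JMJD3 were those of the linker plectin (PLEC, 8.70 in control, 8.84 with wild-type and 8.15 with mutant) and of the tetraspanin CD151 (8.35, 8.74 and 8.15). The median over the 5 measured genes was 0.00 for wild-type against control, -0.12 for mutant against control and -0.08 for wild-type against mutant.

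Enzymes that build the laminin-binding sugar of dystroglycan were measured in 9 of 13 list members. None differed by 2-fold. In wild-type JMJD3 against control 6 lay above and 2 below, with a median of 0.10, and in mutant against control 2 lay above and 3 below, with a median of 0.00. In wild-type against mutant 6 lay above and 2 below, again with a median of 0.10. B4GAT1, which primes the sugar chain, read 10.08 in control, 10.85 with wild-type and 10.27 with mutant JMJD3. POMGNT1, also on this list, was 0.64 above control with wild-type and 0.29 with mutant JMJD3 on the log2 scale. POMT1, which adds the mannose that the sugar is built on, read 7.42, 7.95 and 7.31. B3GALNT2, which adds a further sugar, went the other way and read 10.02, 9.50 and 9.86. POMT1 and B3GALNT2 were named after their values were seen.

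Of 11 proteases on the list of enzymes that cut laminin chains or act on the same matrix, 7 were measured, with medians of 0.00 for wild-type against control, 0.14 for mutant against control and 0.00 for wild-type against mutant JMJD3. PLAU, the urokinase gene, was the only one at 2-fold, with either JMJD3 against control. Of all measured genes, 0.953% were higher by 2-fold or more with wild-type and 2.98% with mutant JMJD3. PLAU read 6.42 in control, 7.57 with wild-type and 7.58 with mutant JMJD3, 2.22-fold and 2.23-fold over the same control array. Its other probe set was under the floor in control (5.10) and over it with wild-type JMJD3 (5.88) and with the mutant. Under an offset instead of a floor the PLAU differences were 0.85 and 0.86 on the log2 scale, short of 2-fold.

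**Figure D4:**
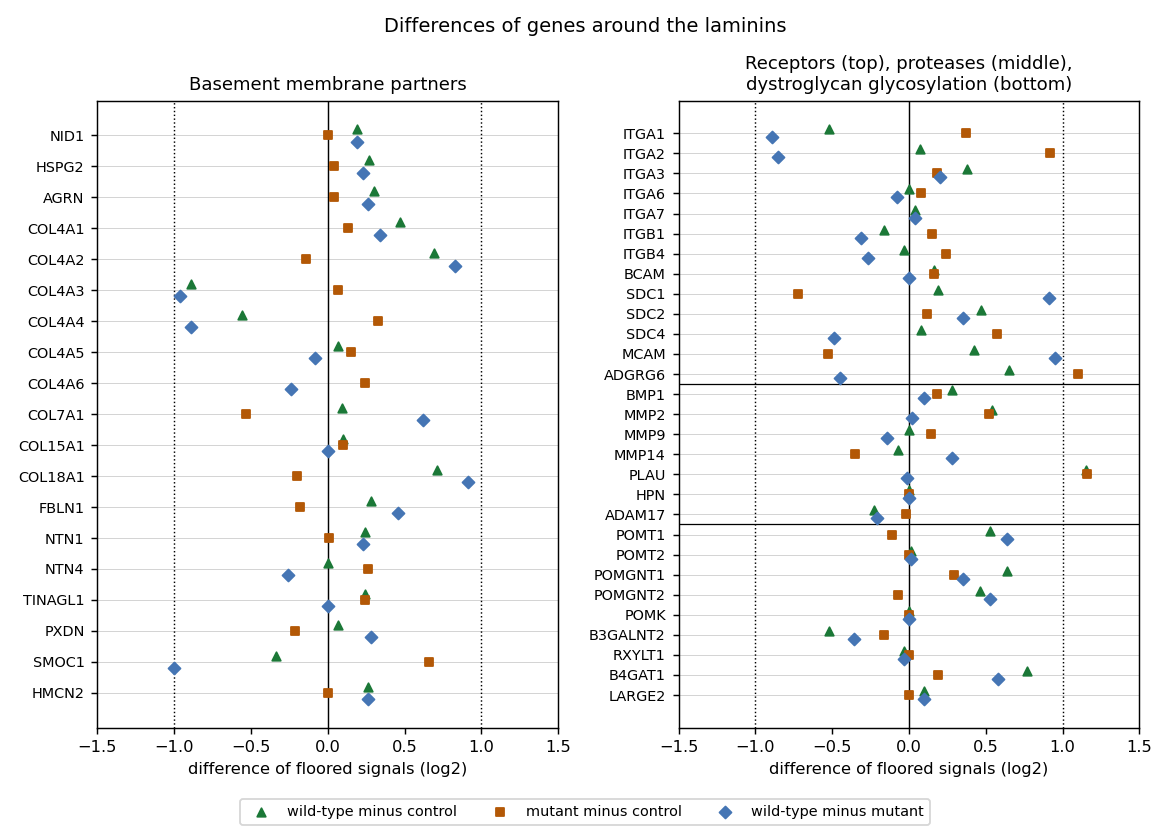
Log2 differences of floored signals (horizontal axis) for measured genes of the basement membrane list (left) and of the receptor, protease and dystroglycan glycosylation lists (right), at each gene's brightest probe set, with dotted lines at 2-fold. PLAU and ADGRG6 lie past the right line and SMOC1 lies on the left one, while the wild-type minus control and wild-type minus mutant points of COL4A3 and COL4A4 lie left of 0 where COL4A1, COL4A2 and COL18A1 lie right of it.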

How the data were processed

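Total RNA of 3 PANC-1 lines was hybridised as biotin-labelled cRNA, 1 array per line, per the labels' protocols. The values deposited by the authors are log2 probe set signals from 2.42 to 14.94 with 2 decimals. The submitters' processing notes name MAS5. Its settings and the normalization between arrays are not given in the sources used here. The sorted columns differed by at most 0.14.

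Groups were taken from the sample titles. The platform annotation gave 41091 of 54613 probe sets 1 gene symbol, 1801 several and 11721 none here. Gene identifiers of 41037 matched the RefSeq gene table of GRCh38.p14, and 0 symbols were updated. In counts and medians each of the 19775 genes was represented by its brightest probe set, by mean log2 signal. Signals were floored at the pooled median (log2 5.48). A difference is one floored log2 signal minus another, and a fold is 2 raised to its size. A gene counted from 2-fold. A fold with one side at the floor is a lower bound. No detection calls were used.

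All laminin probe sets are named. From the other gene lists, members at 2-fold are named, or otherwise those with the largest difference, and genes named outside this rule are marked. Of other laminin chains, LAMB4 and LAMC3 are described. The members and the lists were chosen with earlier results of these data known. Promoter windows are RefSeq sequence, and 8 laminin genes had one, LAMA1 being the exception. The calculation was tested on simulated data before use. The 7 alternatives were median and quantile scaling, floors at the 40th and 60th percentile, an offset equal to the floor signal, a gene's median across probe sets, and omission of shared (_s_at, _x_at) ones. Software was Python 3.11.15 with pandas 2.3.3, numpy 2.4.6 and, for plots, matplotlib 3.10.9.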

Additional observations from a re-analysis of the deposited data

How the results depend on the processing

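Over the 7 alternatives, the laminin differences stayed on their side of 2-fold in 119 of 120 values. The exception was LAMB3 in wild-type against mutant JMJD3 with the offset (0.997), which left 2 laminin genes there in place of 3. Without shared probe sets LAMB2 and LAMA5 have no value, which also left 2. LAMA1 ranged from -1.63 to -1.03 for mutant against control and from 1.67 to 2.58 for wild-type against mutant, and LAMB2 from 1.02 to 1.30 for the latter. With the median over probe sets the signs of LAMB1 (-0.04) and LAMC1 (-0.28) turned in mutant against control, where their main values were 0.14 and 0.08. Over all genes, the count at 2-fold was 141 with the offset and 184 with the median over probe sets for wild-type against control, in place of 287. For mutant against control it was 243 and 293 in place of 447, and for wild-type against mutant 688 and 727 in place of 1130. With the floor at the 40th percentile ADGRG6 passed 2-fold in wild-type against control too (1.24). Of 123 list medians under the alternatives, 13 moved by over 0.1. No scaling moved the median of all measured genes by over 0.1. No paired analysis was possible because each group has 1 array. Depth cannot be given for arrays, and genes near the floor are the least certain.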

Other observations

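Among chains outside the 9 genes, LAMB4 and LAMC3 gave little signal that differed between arrays. LAMC3, a gamma chain of nerve and vessel basement membranes, read 8.58 in all 3 arrays at 219407_s_at and 4.94 in all 3 at 232558_at. As for LAMA5, these equal deposited values do not show that the transcript levels were equal. The 3 probe sets of LAMB4 lay between 2.69 and 3.75, under the floor. The antisense transcript LAMA5-AS1 read 6.24 in control, 6.53 with wild-type and 6.23 with mutant JMJD3, and LAMA4-AS1 read 5.54, 5.67 and 5.54.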
